A study of Mus musculus with 23 samples.

Results

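The 10 genes described here, Dcn, Lum, Fap, Thy1, Postn, Sparc, Fn1, Vim, Acta2 and Tagln, are commonly used to recognise fibroblasts and other mesenchymal cells, and their mRNA was measured in 23 murine pancreatic ductal adenocarcinoma (PDAC) cell lines. Members were the probe sets whose platform annotation gives only the symbol of a listed gene. All 10 genes were found, with 18 probe sets among the 45037 analysed, on an array that covers 18193 genes by a probe set of 1 symbol. The probe set with the highest mean over the 23 lines stands for each gene, and the others were used as a check. Vim was the only gene of the 10 that was high in every line. Fn1, Acta2 and Sparc were high in most lines. Tagln, Dcn, Thy1, Postn and Lum were high in 6 lines or fewer, most of them lines with a low signal of the epithelial cadherin Cdh1. Fap was high in a single line, PPT-5486, a line with a high Cdh1 signal.

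The lines were untreated low-passage cultures in medium with serum, each measured on 1 Affymetrix GeneChip mouse expression array, so a value of a single line carries no error. By name, 11 lines were non-PPT lines, with the prefixes ASC, LN1, HEP, HEP2, PUL, PUL3 and B, and 12 were PPT lines. The sources used here do not spell out these prefixes. By the study's viability assays, 9 lines had a Bez235 IC50 above 10 nmol/L and 14 an IC50 below it (Bez235 is a dual PI3K and mTOR inhibitor). The lines came from 14 mice, and 5 of the mice gave more than 1 line, 14 lines in all. The genotype table of the study lists 13 of the 23 lines. The pancreatic Cre driver is Ptf1a-Cre in 10 of these lines and Pdx1-Cre in 3. A Trp53 R172H allele behind a stop cassette that Cre removes is listed in 6 of the 13 lines and not in the other 7. A luciferase reporter at PCNA is listed in PPT-3250, PPT-5671, PPT-5320 and PPT-5486, and a Tva-lacZ reporter at R26 in PPT-3250, PPT-5671, PPT-16992, PPT-17728 and ASC-53909. For the other 10 lines, those of the mice of PPT-15272, PPT-53631 and HEP-5123, no genotype is listed in the sources used here. The labels describe all lines as pancreatic cancer cells, and whether a line is 1 clone is not given.

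Carcinoma cells start as epithelium, held together by E-cadherin, the product of Cdh1, and stiffened by keratins. In an epithelial to mesenchymal transition they lose these proteins and gain vimentin, fibronectin and further mesenchymal gene products. Fibroblasts and activated stellate cells, which lay down the dense stroma of pancreatic cancer, express the same genes, so none of them marks a fibroblast by itself. Among the products, vimentin (Vim) is an intermediate filament protein, alpha smooth muscle actin (Acta2) and transgelin (Tagln) belong to the contractile actin cytoskeleton, fibronectin (Fn1), Sparc and periostin (Postn) are secreted matrix glycoproteins, decorin (Dcn) and lumican (Lum) are small leucine-rich proteoglycans of collagen fibres, Thy1 is a surface glycoprotein held by a GPI anchor, and Fap is a membrane-bound serine protease.

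The RefSeq promoter table for GRCm38.p6 holds windows of 300 bases around a start site for 4 of the 10 genes, Vim, Postn, Sparc and Acta2; Dcn, Lum, Fap, Thy1, Fn1 and Tagln had no entry. The windows of 3 genes are shown because they stand for the patterns described below, a gene high in every line (Vim), a gene that varied widely (Acta2) and a gene high in 3 lines (Postn). Capitals mark 2 motifs searched on both strands. The first is a CArG-like element, CCNNNNNNGG with at least 5 of its 6 N bases being A or T, the kind of element through which serum response factor acts on contractile genes. The second is TATAAA. The 2 motifs share no bases in these windows.
Acta2, chr19:34255324-34255623, minus strand: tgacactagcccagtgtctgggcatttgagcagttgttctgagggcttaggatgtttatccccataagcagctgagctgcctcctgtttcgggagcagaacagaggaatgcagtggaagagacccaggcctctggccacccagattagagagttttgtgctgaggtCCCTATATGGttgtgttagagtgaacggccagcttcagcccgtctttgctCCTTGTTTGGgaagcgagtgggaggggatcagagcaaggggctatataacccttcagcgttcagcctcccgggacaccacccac
Vim, chr2:13574061-13574360, plus strand: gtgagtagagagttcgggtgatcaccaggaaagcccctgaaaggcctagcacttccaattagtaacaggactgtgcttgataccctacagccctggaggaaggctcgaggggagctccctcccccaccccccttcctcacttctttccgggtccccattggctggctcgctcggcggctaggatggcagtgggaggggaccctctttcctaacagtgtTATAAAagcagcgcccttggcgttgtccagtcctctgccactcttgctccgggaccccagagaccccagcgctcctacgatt
Postn, chr3:54360857-54361156, plus strand: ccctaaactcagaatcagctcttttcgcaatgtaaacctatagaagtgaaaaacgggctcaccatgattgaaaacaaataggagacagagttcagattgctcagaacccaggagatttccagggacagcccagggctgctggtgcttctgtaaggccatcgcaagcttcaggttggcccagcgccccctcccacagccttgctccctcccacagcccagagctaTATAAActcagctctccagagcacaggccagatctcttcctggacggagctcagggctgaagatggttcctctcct
The Acta2 window held 2 CArG-like matches, CCCTATATGG at -84 and CCTTGTTTGG at -34 from the annotated start site. A tatata stretch lies downstream of that annotated site in the window, and where transcription starts was not measured. At least 1 such match stood in 9.98% and at least 2 in 0.822% of 32851 mouse promoters of the same length. TATAAA stood at -32 in Vim and at -26 in the Postn window shown, and 13.6% of all promoters held it. A second Postn window, chr3:54359017-54359316, is not shown and held neither motif. These matches are letters in a window, not measured binding sites.

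A gene was called high in a line where its signal lay above the 75th percentile of all probe sets of the same array (6.58 to 6.87 on the log2 scale), and below the array's median where it lay under 3.58 to 3.89. The arrays hold no detection call, and the brightness of a probe set also depends on its probes, so signals of different genes were not set against each other. Of all 45037 probe sets, 16.8% were high in all 23 lines, 38.2% lay below the median in all lines and 17.7% were high in some lines only. The 10 genes varied more than most. Their median SD over the 23 lines was 2.29, and that of all probe sets was 0.28. The array of a whole culture gives the sum over its cells, so fewer cells with a transcript and less transcript per cell cannot be told apart.

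The lines were ordered by Cdh1 and parted at the widest gap between neighbours, which was 3.75 on the log2 scale. Below it lay 6 lines, PPT-3250 (Cdh1 signal 2.22), ASC-5193 (2.75), PPT-16992 (3.59), PPT-17728 (4.81), PPT-5320 (5.87) and ASC-53909 (6.48). The other 17 lines had Cdh1 signals of 10.23 to 11.81 and are called high-Cdh1 lines. The 2 sides were made from these arrays, so the differences between them are given as a description, with no test. Of the 6 low-Cdh1 lines, 5 are listed without a Trp53 R172H allele and 1, ASC-5193, with it. By the same rule Epcam, another epithelial surface protein, set apart only PPT-15272, at 11.70, from the other 22 lines. Its signals were still lower on the low-Cdh1 side, at 2.89 to 3.74 (mean 3.29) against 3.69 to 11.70 (mean 6.63). Of the high-Cdh1 lines only PPT-5748 (3.69) fell into the low-Cdh1 range. A second probe set of Epcam averaged 5.32 in low-Cdh1 and 5.37 in high-Cdh1 lines.

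**Figure D1:**
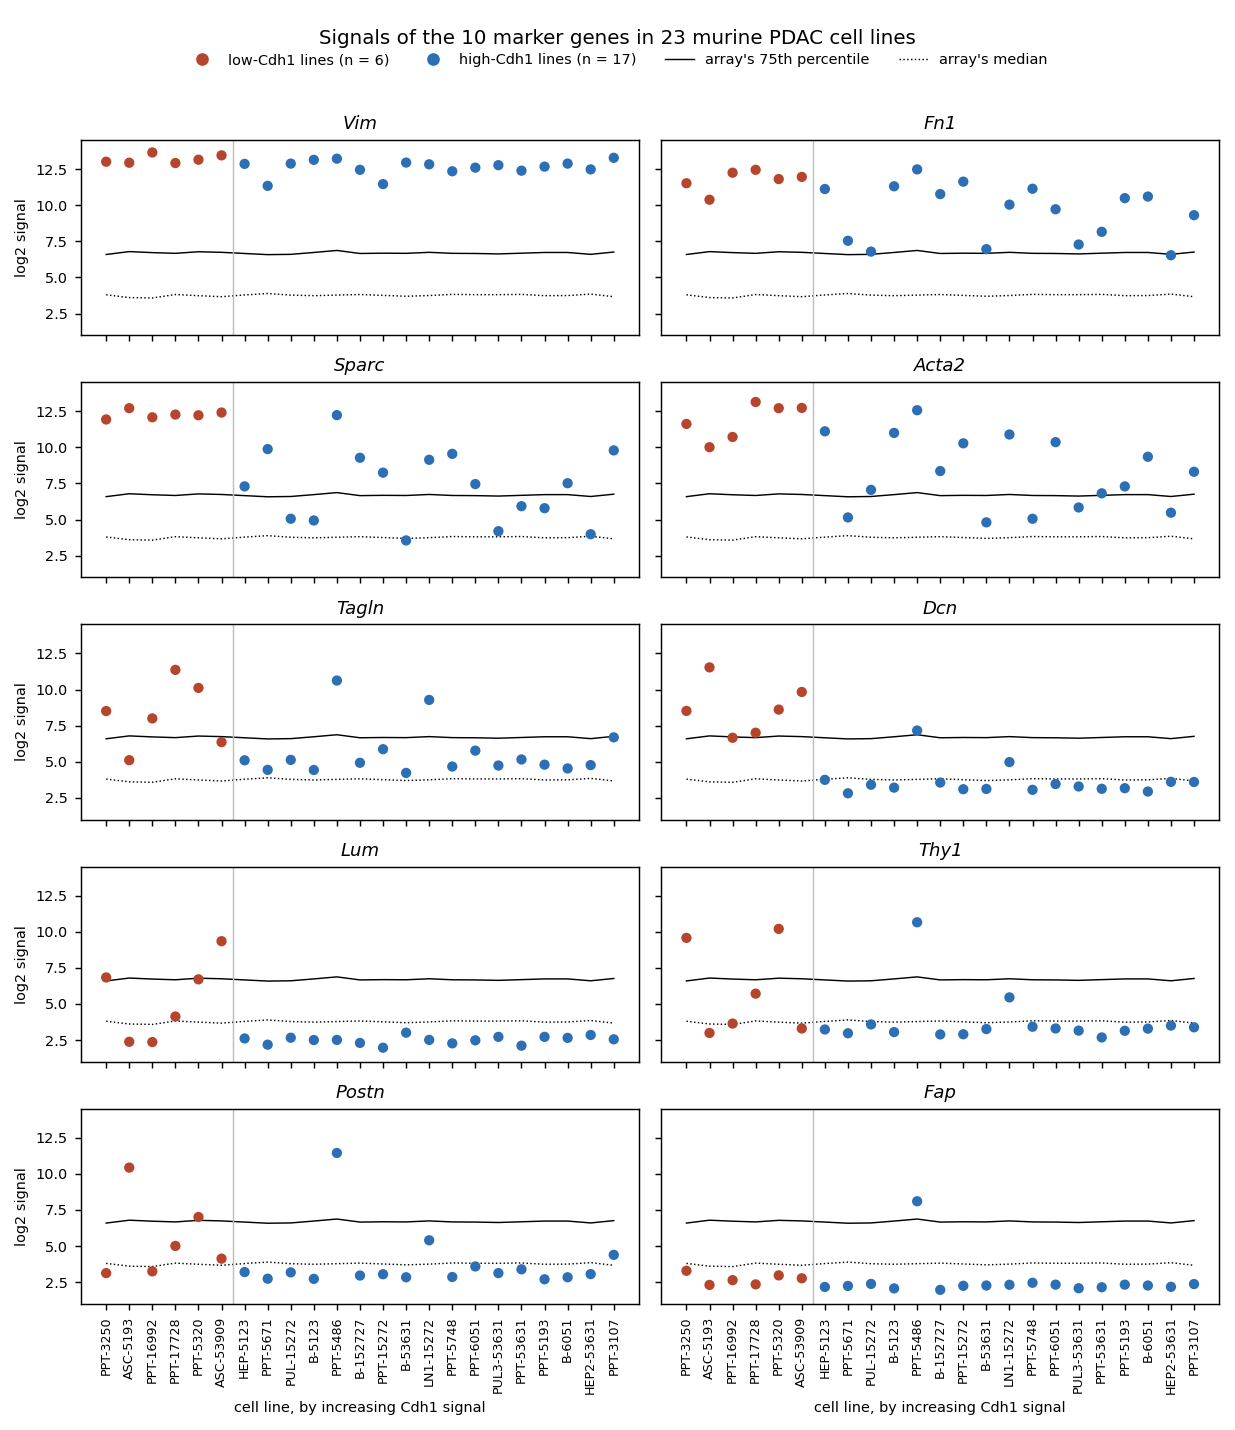
Log2 signal of each of the 10 genes (1 panel per gene) in the 23 lines, ordered by increasing Cdh1 signal, with the 6 low-Cdh1 lines in red at the left and the 17 high-Cdh1 lines in blue. The solid line is the 75th percentile and the dotted line the median of each array; Vim lies above the solid line in all 23 lines, and Fap in PPT-5486 only.

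Vim was high in all 23 lines, with signals of 12.92, 13.08 and 13.65 (lowest, median and highest) in the low-Cdh1 lines and of 11.34, 12.77 and 13.28 in the high-Cdh1 lines. The ranges overlapped, and the means were 13.19 ± 0.30 in the low-Cdh1 lines and 12.62 ± 0.54 in the high-Cdh1 lines (SD, n = 6 and n = 17). The lowest signals were those of PPT-5671 (11.34) and PPT-15272 (11.46), both far above the 75th percentile of their arrays. The other 2 probe sets of Vim were high in all 23 lines as well, with signals between 11.16 and 13.28. Vim thus did not separate the lines by Cdh1.

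Fn1 was high in 22 of the 23 lines. In the low-Cdh1 lines its signals were 10.38, 11.89 and 12.45 (lowest, median and highest), and in the high-Cdh1 lines 6.54, 10.04 and 12.48. The exception was HEP2-53631 at 6.54, just under the 75th percentile of its array (6.60), and PUL-15272 (6.79) and B-53631 (6.96) lay just above theirs (6.60 and 6.67). The highest signal of all lines was that of PPT-5486. The second probe set of Fn1 was dimmer, with 6 lines above and 6 below the respective limits, and it was highest in PPT-17728 (8.17) and lowest in PUL-15272 (1.94).

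Acta2 was high in 18 lines and below the array's median in none. All 6 low-Cdh1 lines were high, at 10.01, 12.17 and 13.14 (lowest, median and highest), against 4.81, 8.31 and 12.57 in the high-Cdh1 lines. Of the high-Cdh1 lines 12 were high, and the 5 that were not were PPT-5671 (5.15), B-53631 (4.81), PPT-5748 (5.06), PUL3-53631 (5.84) and HEP2-53631 (5.48). High-Cdh1 lines such as PPT-5486 (12.57), HEP-5123 (11.11) and LN1-15272 (10.89) reached the range of the low-Cdh1 lines. The probe set of Acta2 that stands for the gene has the suffix _s_at, which Affymetrix gives to sets whose probes match several transcripts, so other actin mRNA may add to it. The other 2 probe sets of Acta2 were dim, with 0 lines high, and only PPT-17728 (6.61) and ASC-53909 (4.10) lay above the median on either of them.

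Sparc was high in 16 lines, with signals close together on the low-Cdh1 side and far apart on the other. The 6 low-Cdh1 lines had signals of 11.93 (PPT-3250), 12.71 (ASC-5193), 12.08 (PPT-16992), 12.27 (PPT-17728), 12.22 (PPT-5320) and 12.41 (ASC-53909). The high-Cdh1 lines had signals of 3.56, 7.46 and 12.23 (lowest, median and highest), 10 of them high and 1, B-53631, below the array's median. Apart from PPT-5486 at 12.23, no high-Cdh1 line exceeded 9.88 (PPT-5671), so the sides overlapped only through PPT-5486. The means were 12.27 ± 0.27 in low-Cdh1 lines and 7.29 ± 2.50 in high-Cdh1 lines (SD, n = 6 and n = 17). A second probe set of Sparc gave 11.45 to 12.53 in the low-Cdh1 lines and 2.95 to 11.65 in the high-Cdh1 lines. The third stayed between 4.12 and 4.95 in all lines and did not follow the other 2.

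Tagln lay above the array's median in all 23 lines but was high in only 6. On the low-Cdh1 side PPT-17728 (11.36), PPT-5320 (10.11), PPT-3250 (8.51) and PPT-16992 (8.0) were high, and ASC-53909 (6.36) and ASC-5193 (5.11) were not. In the high-Cdh1 lines the signals were 4.23, 4.93 and 10.62 (lowest, median and highest), with PPT-5486 (10.62) and LN1-15272 (9.28) high and PPT-3107 (6.69) next. Both lines with the prefix ASC were thus among the low-Cdh1 lines without a high Tagln signal.

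Dcn lay below the array's median in most lines and was brighter on average in the low-Cdh1 lines, by 5.08 on the log2 scale. Its signals in the low-Cdh1 lines were 8.52 (PPT-3250), 11.53 (ASC-5193), 6.66 (PPT-16992), 7.01 (PPT-17728), 8.61 (PPT-5320) and 9.83 (ASC-53909), of which all but that of PPT-16992 were high. In the high-Cdh1 lines they were 2.82, 3.29 and 7.16 (lowest, median and highest), with 15 of 17 lines below the array's median. PPT-5486 (7.16) was high, LN1-15272 (4.98) lay in between, and without PPT-5486 the sides did not overlap. The means were 8.69 ± 1.81 in low-Cdh1 lines and 3.61 ± 1.03 in high-Cdh1 lines (SD, n = 6 and n = 17). The other probe set of Dcn lay below the array's median in all 23 lines, at 2.02 to 2.84.

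Lum, the second proteoglycan, was the only gene of the 10 that lay below the array's median in all 17 high-Cdh1 lines, at 1.97 to 3.01. In the low-Cdh1 lines its signals were 9.34 (ASC-53909), 6.83 (PPT-3250), 6.70 (PPT-5320), 4.13 (PPT-17728), 2.38 (ASC-5193) and 2.36 (PPT-16992). The first 2 of these were high, and PPT-5320 missed the limit of its array (6.78) narrowly. Dcn and Lum are neighbours on chromosome 10, with 0 genes annotated between them. Their signals still parted in ASC-5193, the line with the highest Dcn signal (11.53), where Lum stood below the array's median (2.38). In PPT-5486 too, Dcn was high (7.16) and Lum was not (2.51).

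Thy1 was high in 3 lines, PPT-5320 (10.19) and PPT-3250 (9.57) of the low-Cdh1 lines and PPT-5486 (10.65) of the high-Cdh1 lines. PPT-17728 (5.71) and LN1-15272 (5.45) were intermediate, and 17 lines lay below the array's median. Postn was also high in 3 lines, ASC-5193 (10.43) and PPT-5320 (7.01) of the low-Cdh1 lines and PPT-5486 (11.44) of the high-Cdh1 lines. For Postn, LN1-15272 (5.40), PPT-17728 (5.01), PPT-3107 (4.39) and ASC-53909 (4.13) were intermediate, and 16 lines lay below the median. The 2 genes were therefore both high in PPT-5320 and PPT-5486 only. ASC-5193, with a Postn signal of 10.43, had a Thy1 signal of 2.99, and PPT-3250, with a Thy1 signal of 9.57, had a Postn signal of 3.13.

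Fap was high in PPT-5486 only, at 8.10. In every other line it lay below the array's median, at 2.31 to 3.29 in the low-Cdh1 lines and at 1.97 to 2.46 in the other 16 high-Cdh1 lines. Fap was thus dim in all 6 low-Cdh1 lines.

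By line, 5 to 8 of the 10 genes were high in the low-Cdh1 lines (median 6), and 1 to 9 in the high-Cdh1 lines (median 3). The lowest count was that of HEP2-53631, where only Vim was high, and the highest that of PPT-5486, where all but Lum were. Among the low-Cdh1 lines PPT-3250 and PPT-5320 had 8 high genes and PPT-16992 had 5. The mean signal was higher in the low-Cdh1 lines for 10 of 10 genes, by more than 1 on the log2 scale for 8, with a median difference of 2.42 and the smallest differences for Fap (0.14) and Vim (0.57). Over all probe sets the median difference was -0.0065, and 3.26% differed by more than 1 in this direction. No gene of the 10 separated the sides without overlap, which 0.451% of all probe sets did upward. With PPT-5486 left aside, a choice made after its values were seen, Dcn and Sparc did, as did 0.822% of all probe sets. These shares describe lines that were ordered by a gene of the same arrays, and the 10 genes were listed with results of these arrays known.

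PPT-5486 was set apart from the other high-Cdh1 lines by these genes and not by Cdh1 or the keratins. Its signals were 10.80 for Cdh1, 13.29 for Krt8 and 13.22 for Krt18, within the ranges of the other 16 high-Cdh1 lines (10.23 to 11.81, 12.26 to 13.75 and 12.36 to 13.74). Krt19 (11.71) and Krt7 (9.39) lay within theirs too (10.29 to 13.18 and 4.46 to 12.83), Krt19 below their median of 12.40. The epithelial gene Esrp2 (6.49) was lower than in each of these lines (6.96 to 8.87). Among all 23 lines PPT-5486 ranked 1 for Fap, Thy1, Postn and Fn1, 2 for Tagln, 4 for Sparc, Vim and Acta2 and 5 for Dcn. It exceeded the highest of the other 16 high-Cdh1 lines by 6.04 for Postn, 5.64 for Fap, 5.20 for Thy1, 2.35 for Sparc and 2.18 for Dcn. These 5 genes of the 10 were more than 2 above, against 0.395% of all probe sets. PPT-5486 was singled out by its values for these same genes, so this contrast is a description and not a test. For Lum it was unremarkable (2.51, rank 13). PPT-5486 is a PPT line with a Trp53 R172H allele and a low Bez235 IC50. On its array all 19 measured genes of a further list of fibroblast and stromal matrix genes were high. Among them were Col1a2 (13.15), Col3a1 (13.01) and Pdgfrb (10.59). The low-Cdh1 lines had 10 to 16 of the 19 high, and the other high-Cdh1 lines 1 to 11. Of 7 transcription factors of the transition 6 were high in PPT-5486. The low-Cdh1 lines had 4 to 6 of these high, and the other high-Cdh1 lines 1 to 4. Of the markers of leukocytes, endothelium and pericytes none was high in it, and no other line had more than 1 gene of such a list high. The share of fibroblasts in this culture was not tested.

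LN1-15272 shared a part of this profile at lower signals and was second to PPT-5486 among the high-Cdh1 lines for Dcn (4.98), Thy1 (5.45), Postn (5.40) and Tagln (9.28). Only Tagln of these was high. Its Cdh1 signal was 11.12, and 11 of the 19 stromal matrix genes were high in it, against 9 in PPT-3107. Of the 7 transcription factors of the transition 2 were high in LN1-15272. Fap (2.32) lay below the median of its array. Sparc (9.14) was lower than in PPT-5671 (9.88), and Fn1 (10.04) stood at the median of the high-Cdh1 lines.

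Lines of the same mouse share the tumour's founding alleles and were set side by side, with 1 array each and therefore no error. The widest contrast was that of ASC-5193 and PPT-5193, lines of 1 mouse with a low and a high Cdh1 signal (2.75 and 11.50). Dcn stood at 11.53 in ASC-5193 and at 3.17 in PPT-5193, Postn at 10.43 and 2.70, and Sparc at 12.71 and 5.79. Acta2 was higher by 2.71 in ASC-5193. The 6 other genes differed by no more than 0.34, among them Fn1 (10.38 in ASC-5193 and 10.49 in PPT-5193), Vim (12.94 and 12.67) and Tagln (5.11 and 4.80). The keratins Krt8 (3.44 and 13.23) and Krt18 (2.46 and 13.18) went the other way. The pair thus differed in 4 of the 10 genes by more than 1 on the log2 scale, all of them higher in ASC-5193. The share of all probe sets that differed this much between the pair was not computed, so this count is a description.

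In the mouse of PPT-15272, whose 4 lines all had high Cdh1 signals (10.69 to 11.12), the genes parted differently. LN1-15272 was highest for Dcn, Thy1, Postn, Acta2 and Tagln, B-152727 for Sparc (9.28) and PPT-15272 for Fn1 (11.63). PUL-15272 was lowest for Sparc (5.06), Fn1 (6.79) and Acta2 (7.06). In its mouse PPT-53631 was highest of 4 lines for Sparc (5.93), Fn1 (8.16) and Acta2 (6.82), and B-53631 was lowest for Sparc (3.56) and Acta2 (4.81). The lines HEP-5123 and B-5123 were furthest apart for Sparc (2.36), and PPT-6051 and B-6051 for Tagln (1.23). Within the 5 mice the widest ranges were 8.36 for Dcn, 7.73 for Postn and 6.92 for Sparc, all between ASC-5193 and PPT-5193, and 0.41 for Fap.

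Lists of markers of other cell types were read on the same arrays. Of 85 list entries, the 10 genes included, 81 were measured. The fibroblast and stromal matrix list (collagens, Pdgfra, Pdgfrb, Bgn, Mmp2, Tnc and others) was more than 1 higher on average in the low-Cdh1 lines for 19 of 19 measured genes, with a median difference of 3.05, and Col3a1 averaged 11.74 ± 0.98 in low-Cdh1 lines and 4.24 ± 2.95 in high-Cdh1 lines (SD, n = 6 and n = 17). S100a4, often called fibroblast-specific protein, was high in all 23 lines. The contractile list was more than 1 higher for 3 of 11 genes (Myl9, Cald1 and Cnn2), while Myh11, the myosin of differentiated smooth muscle, lay below the array's median in all lines and Des, Lmod1 and Actg2 were high in none. The transcription factors of the transition were more than 1 higher for 6 of 7 genes, with Prrx1 at 10.18 ± 0.56 in low-Cdh1 lines and 3.44 ± 1.61 in high-Cdh1 lines.

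Epithelial genes were more than 1 lower in low-Cdh1 lines for 10 of 12 genes, Cdh1 included, with a median difference of -3.50, and 3.29% of all probe sets were. The leukocyte, endothelial, pericyte and acinar lists had median differences of 0.00, -0.04, -0.05 and 0.04. Ptprc, Adgre1 and Itgam of leukocytes and Pecam1, Cdh5, Tek, Tie1 and Emcn of endothelium lay below the array's median in all 23 lines. So did Rgs5, Kcnj8 and Abcc9 of pericytes and Cpa1 of acinar cells. These were 3 of 7, 5 of 6, 3 of 6 and 1 of 3 measured genes, against 38.2% of all probe sets. Csf1r, Kdr, Des and Ctrb1 of the same lists lay above the median in all lines. The mean signal of the leukocyte list was 3.01 to 3.70 in the low-Cdh1 lines, 3.24 in PPT-5486 and 3.13 to 3.71 in the other high-Cdh1 lines. That of the endothelial list was 2.43 to 2.60, 2.43 and 2.39 to 2.81. Other genes of these lists were brighter. The pericyte marker Cspg4, a surface proteoglycan, averaged 6.08 ± 0.97 in low-Cdh1 lines and 4.91 ± 0.54 in high-Cdh1 lines (SD, n = 6 and n = 17), and was high in PPT-3250 (6.82) and ASC-53909 (7.15). The acinar protease gene Cela1 averaged 5.91 ± 1.75 in low-Cdh1 lines and 6.53 ± 1.18 in high-Cdh1 lines, and was high in ASC-5193 (8.50), ASC-53909 (7.31) and several high-Cdh1 lines. The lysosomal Cd68 of the leukocyte list was high in PUL-15272 (7.37), a high-Cdh1 line. The part of such cells in the signals of the 10 genes was not tested.

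For each of the 10 genes the 3 genes with the most similar pattern were sought among 11651 genes, by Pearson's r over the 23 lines, as a description. Dcn was closest to Emilin1 (r = 0.966, Spearman's rho 0.792), an elastic fibre glycoprotein, and to Prrx1 (r = 0.942, rho 0.842), a mesenchymal homeobox factor. Sparc was closest to Lhfp (r = 0.908, rho 0.892) and Lrp1 (0.89 and 0.844), and Tagln to the collagen crosslinking enzyme Lox (0.942 and 0.861) and to Col1a2 (0.872 and 0.886). Fn1 was closest to the actin-binding Cald1 (0.876 and 0.898), Jun (0.869 and 0.852) and Inhba (0.868 and 0.801), and Acta2 to the serine protease Prss23 (0.899 and 0.88). Vim was closest to the actin regulator Cfl2 (0.818 and 0.773).

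For the genes that were high in a few lines only, the correlation rests on those lines. Lum was closest to the hyaluronan synthase Has1 (r = 0.97), but rho was 0.577 and r within the 17 high-Cdh1 lines 0.236. Fap was closest to Tmem45a (r = 0.819, rho 0.147), Thy1 to Foxs1 (0.897 and 0.353) and Postn to Kcnmb4 (0.896 and 0.481). Between members, the high-Cdh1 lines alone gave r = 0.906 (rho 0.842) for Postn with Tagln, and 0.958 (rho 0.811) without PPT-5486. Postn lay below the array's median in 14 of these 17 lines, so both values of r rest on few lines. Fn1 with Acta2 gave 0.743 (rho 0.664) in these 17 lines and 0.689 (rho 0.597) without PPT-5486. Dcn with Sparc gave 0.52 (rho 0.054) and, without PPT-5486, 0.172 (rho -0.135). The lines of a mouse are not independent, so no p is given.

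The study asked which genes part lines of high from lines of low Bez235 IC50. Its own comparison held further lines and used local false discovery rates, so the counts given here do not repeat it. In limma, with Benjamini-Hochberg adjustment over 45037 probe sets, 0 of the 10 genes passed an adjusted p of 0.05, and 0% of all probe sets did. At an unadjusted p under 0.05 stood 2 of the 10 genes and 4% of all probe sets (1803). Tagln averaged 5.12 ± 0.64 in the 9 lines of high IC50 and 7.04 ± 2.54 in the 14 lines of low IC50, a log2 fold change of -1.93 (SE 0.83, unadjusted p = 0.029, limma adjusted p = 0.9997). Its signals were 4.43, 5.10 and 6.36 (lowest, median and highest) in lines of high IC50 and 4.23, 6.23 and 11.36 in lines of low IC50, so the groups overlapped, and all 6 lines in which Tagln was high had a low IC50.

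Thy1 averaged 3.15 ± 0.25 in lines of high IC50 and 5.07 ± 2.89 in lines of low IC50, a log2 fold change of -1.92 (SE 0.92, unadjusted p = 0.0493, limma adjusted p = 0.9997). Its 3 high lines had a low IC50 as well, while the signals ran between 2.89 and 3.58 in lines of high IC50 and between 2.68 and 10.65 in lines of low IC50. Of the 9 lines of high IC50, 6 were non-PPT lines, against 5 of the 14 of low IC50. With the mouse as a random block the log2 fold changes were -2.39 for Tagln (unadjusted p = 0.00566) and -2.19 for Thy1 (unadjusted p = 0.0236), and with 1 mean array per mouse and group -2.82 (unadjusted p = 0.0107) and -2.66 (unadjusted p = 0.0425). With the prefix class (PPT or not) as a covariate they were -1.49 for Tagln (unadjusted p = 0.0869) and -1.53 for Thy1 (unadjusted p = 0.122). Without PPT-5486 they were -1.65 (unadjusted p = 0.0478) and -1.49 (unadjusted p = 0.0753), and within the 17 high-Cdh1 lines -1.12 (unadjusted p = 0.171) and -1.03 (unadjusted p = 0.24), all with limma adjusted p above the threshold.

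The other 8 genes had log2 fold changes between -0.54 (Fap, SE 0.50) and 0.38 (Sparc, SE 1.28), and the median of the 10 was -0.34, against -0.0024 over all probe sets. Vim, the least variable gene, differed by -0.37 (SE 0.21). For Sparc the lines of high IC50 held 4.94, 9.28 and 12.71 (lowest, median and highest) and the lines of low IC50 3.56, 8.33 and 12.27. Low-Cdh1 lines lay in both groups, ASC-5193 and ASC-53909 at high IC50 and the other 4 at low IC50. A p above the threshold does not show that the groups were alike: the SE of Sparc, Acta2 and Dcn were 1.08 to 1.28 on the log2 scale.

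Of the stromal matrix list 15 of 19 genes had a lower and 4 a higher mean signal in lines of high IC50 (median log2 fold change -0.48), with 0 called by the adjusted and 1 by the unadjusted p. The transcription factors of the transition had a median of -0.03 and the contractile list of -0.04, with 0 genes called after adjustment.

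Between non-PPT and PPT lines, with the mouse as a random block, 0 of the 10 genes passed the adjusted threshold of limma, as did 0% of all probe sets, and 0 of the 10 an unadjusted p under 0.05, against 3.66% of all probe sets. Sparc averaged 7.28 ± 3.28 in the 11 non-PPT lines and 9.78 ± 2.46 in the 12 PPT lines, with a log2 fold change of -1.72 (SE 1.09, limma adjusted p = 0.9999). Tagln followed with -1.54 (SE 0.80), Thy1 with -1.32 (SE 0.90) and Fn1 with -1.08 (SE 0.68), all with adjusted p = 0.9999 in limma. All 3 lines with high Thy1 and 5 of the 6 with high Tagln were PPT lines. The remaining 6 genes had values between -0.56 (Fap) and 0.38 (Dcn). Without the block Sparc differed by -2.50 (unadjusted p = 0.0392), also short of the adjusted threshold.

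**Figure D2:**
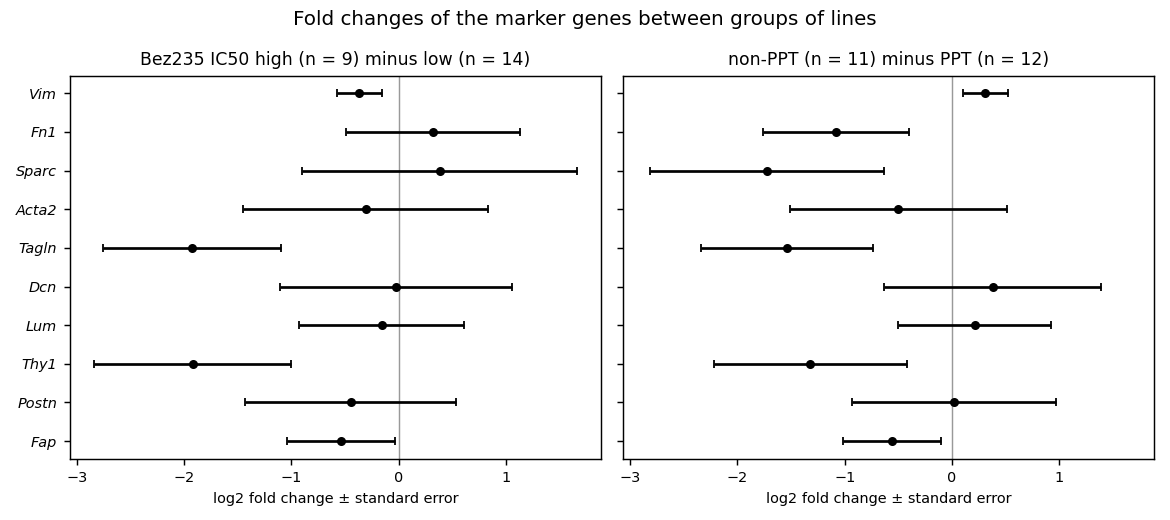
Log2 fold changes of the 10 genes (points, 1 row per gene) with their standard errors (bars) from limma, for lines of high minus low Bez235 IC50 (left, 9 and 14 lines) and for non-PPT minus PPT lines (right, 11 and 12 lines). The values lie between -1.93 (Tagln) and 0.38 on the left and between -1.72 (Sparc) and 0.38 on the right, and none passed an adjusted p of 0.05.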

How the data were processed

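RNA of 23 murine PDAC cell lines was hybridised to Affymetrix GeneChip mouse expression arrays, 1 array per line. For each array, log2 values of all probe sets were deposited by the authors, who had corrected the background, made the arrays comparable and combined the probes of a set. The supplementary methods name VSN and the submitters' processing notes name RMA for these steps; no version was found in these sources. Which of the 2 made the values is not settled, and either can shift low signals. The deposited log2 values were used without a pseudocount or filter. Of 45101 probe sets, 64 controls were left out; 34945 had 1 symbol in the platform annotation, 932 several and 9160 none. Arrays carry no counts, so their number limits the precision. No 2 arrays were identical (0 pairs).

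Line names from the labels gave the prefix class (PPT or not) and the mouse; the study's supplementary tables gave the Bez235 IC50 group (limit 10 nmol/L) and the alleles, by line name. The line labelled B-152727 was taken as B-15272. Signals of lines of 1 mouse, centred per probe set, correlated with a median r of 0.417 over 15 pairs, against -0.0854 over 238 other pairs, and the labels tie these lines to a mouse. Groups were compared over all probe sets with limma 3.58.1 in R 4.3.3 (lmFit, eBayes, duplicateCorrelation; Benjamini-Hochberg, threshold 0.05), and the fits were tested on simulated data. The lines of a group are separate cultures, some of the same mouse. Other values were computed in Python 3.11.15 and drawn with matplotlib 3.10.9. Alternatives changed the mouse block, the normalization, the filter, the probe set, the lines, the covariate, the variance model and the test; leaving out PPT-5486 as a single alternative was added after seeing the data.

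The text names the 10 genes and Cdh1, genes of the marker lists by count with a few values, and the genes closest to each member by Pearson's r. The members and lists were chosen with earlier results of these data known. Other lines of the study were not analysed here, and 1 item of the listed genotypes is not reported here.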

Additional observations from a re-analysis of the deposited data

Results flagged for a closer look

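The signals of the 10 genes were examined for single lines that stood far from the rest of the 9 lines of high Bez235 IC50, by Dixon's criterion for 9 values. The other groups held more than 10 lines and were not examined. Of the 10 genes 2 had such a line. The criterion flags about 1 in 20 sets of normally distributed values. The share over all probe sets was not computed, and these genes varied more than most, so the count is a description. Lum had a signal of 9.34 in ASC-53909, next to 2.66 in the second highest line of the group, and this gap made up 0.906 of the range. Postn had a signal of 10.43 in ASC-5193, next to 4.13 in the second highest line, which was ASC-53909, with a gap of 0.818 of the range. Both lines have low Cdh1 signals (6.48 and 2.75) and are the only low-Cdh1 lines of high IC50. The cause was not tested.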

How the results depend on the processing

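In both comparisons 0 of the 10 genes passed the adjusted threshold of limma under any alternative run. Of all probe sets 0 passed it, with 1 exception: without PUL-15272, 1 probe set was called lower in lines of high Bez235 IC50 (limma adjusted p = 0.00714). A Student's t-test in place of limma gave 894 probe sets higher and 898 lower in lines of high IC50 at an unadjusted p under 0.05. After Benjamini-Hochberg it gave 0. Of 212 values of single genes under alternatives other than leaving out a line in turn, 192 kept their sign. The 20 that changed it passed the threshold under neither setting, and the cause was not tested. Between lines of high and low Bez235 IC50, the mouse as a random replicate block (correlation 0.281) turned Dcn to 0.11 and Fn1 to -0.09. With 1 mean array per mouse and group Dcn was 0.06, Sparc -0.04 and Fn1 -0.45. Dcn was 0.14 without B-152727, 0.03 with the prefix class as a covariate and 0.14 without PPT-5486, where Postn was 0.09. Acta2 was 0.12 in high-Cdh1 lines only, and another probe set of Sparc gave -0.04. Between non-PPT and PPT lines, the fit with no replicate block gave Dcn -0.19, Lum -0.0042 and Postn -0.39. Acta2 was 0.05 with 1 mean array per mouse and group, and Postn -0.002 after a second quantile normalization. In high-Cdh1 lines only, Dcn was -0.10 and Postn -0.89, and other probe sets gave -0.12 for Dcn and 0.04 for Sparc. The block changed no call.

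Leaving out each line in turn, the values that changed sign ranged for Bez235 from -0.85 (without ASC-5193) to 0.25 (without PPT-3250) for Dcn, -0.94 (without ASC-53909) to 0.11 (without PPT-3250) for Lum, -1.26 (without ASC-5193) to 0.09 (without PPT-5486) for Postn, -0.10 (without ASC-5193) to 0.87 (without B-5123) for Sparc and -0.78 (without ASC-53909) to 0.18 (without PPT-5748) for Acta2. For non-PPT against PPT lines they ranged from -0.50 (without ASC-5193) to 0.67 (without B-6051) for Dcn, -0.42 (without ASC-53909) to 0.47 (without PPT-3250) for Lum and -0.85 (without ASC-5193) to 0.55 (without PPT-5486) for Postn. Centring each array on its median moved the share of probe sets with a higher mean in non-PPT lines to 60.5%, against 50.8% in the values as deposited.

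With the array's median as the limit, 4 of the 10 genes were high in all 23 lines (Vim, Fn1, Acta2 and Tagln). The count was 1 with the 75th percentile, with the 90th percentile, after quantile normalization and on the other probe sets. With the 75th percentile 16.8% of all probe sets were high in all lines. That share was not computed for the other limits, so the count of 4 is a description. By Epcam 22 lines lay below the widest gap, and 2 lines had a Cdh1 signal below the array's median, against the 6 below the widest gap. Cdh1 has no other probe set, so that alternative was not run. Each line has 1 array, so no value of a line carries an error.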
